A study of Mus musculus with 12 samples.

Results

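The 9 genes described here encode the light response of cone photoreceptors in the mouse retina, and were taken by symbol from the 37991 genes of the deposited tables. They are Opn1sw, Gnat2, Gnb3, Gngt2, Pde6c, Pde6h, Cnga3, Cngb3 and Arr3. The rule uses no measured value, although earlier results of these data were known when the genes were chosen. The genes were followed in 12 retina libraries, 3 each of F0 C57BL/6J, the standard laboratory strain, of F0 Cast/EiJ, a wild-derived inbred strain, and of the reciprocal hybrids. F1 B6xCast mice had a C57BL/6J father and a Cast/EiJ mother, and F1 CastxB6 mice had a Cast/EiJ father and a C57BL/6J mother. All mice were male, untreated and 8 weeks old, and each library was a pool of 6 to 8 retinas. Cones are a minority of the cells of the mouse retina.

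Cones carry vision in bright light. In each cone a photon is caught by an opsin, which activates the G protein transducin. Transducin switches on a phosphodiesterase, PDE6, whose hydrolysis of cyclic GMP closes a cyclic nucleotide-gated channel in the outer segment membrane, and cone arrestin then quenches the opsin. Rods run the same cascade with a separate set of genes, so most members have a rod counterpart. Mouse cones express a short-wavelength opsin, Opn1sw, a medium-wavelength opsin, Opn1mw, or both.

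Expression had been estimated by the authors with MMSEQ against strain-specific transcriptomes. Levels are given here as their normalized count equivalents, which estimate the read pairs of a gene in a library, and in the F1 libraries of each allele. The F1 level of a gene is the mean of its allele columns, each of which had been scaled to a full library. Unique hits, the read pairs that fit a single gene and in F1 a single allele, ranged from 8158534 to 12363291 per library. Between genes, levels were compared only on an FPKM-like scale corrected for transcript length, obtained by exponentiating the log expression in the files. Differences are log2 values, Cast/EiJ over C57BL/6J, fitted with limma on log2-transformed count equivalents (pseudocount 1), with SEs, and a gene was called at an adjusted p under 0.05 by the Benjamini-Hochberg method over all genes tested. The 3 libraries of a class were separate pools of retinas. In whole retina, fewer cones and less RNA per cone cannot be told apart.

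The reference sequence ahead of the transcription start, where the photoreceptor homeodomain factor CRX is known to bind many retinal genes, was at hand for 5 of the 9 members in RefSeq windows of the GRCm38.p6 build. These are Opn1sw, Gnat2, Pde6h, Cnga3 and Arr3, and windows for Pde6c, Cngb3, Gngt2 and Gnb3 were not analysed here. The 250 bases before the start are shown for Opn1sw, the opsin with the differences described below, for Cnga3, which differed most between the strains, and for Gnat2, whose strain difference did not pass the test. They are the C57BL/6J reference on the coding strand, at chr6:29380514-29380763 on the minus strand, chr1:37218028-37218277 on the plus strand (the first of its 2 starts) and chr3:108092816-108093065 on the plus strand. Capitals mark matches to the CRX-like core TAATC or its longer form TAATCC on either strand.
Opn1sw: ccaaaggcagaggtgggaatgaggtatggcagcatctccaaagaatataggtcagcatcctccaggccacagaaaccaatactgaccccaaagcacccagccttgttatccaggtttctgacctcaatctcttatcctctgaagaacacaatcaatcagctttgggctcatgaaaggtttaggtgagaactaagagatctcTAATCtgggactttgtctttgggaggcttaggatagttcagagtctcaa
Cnga3: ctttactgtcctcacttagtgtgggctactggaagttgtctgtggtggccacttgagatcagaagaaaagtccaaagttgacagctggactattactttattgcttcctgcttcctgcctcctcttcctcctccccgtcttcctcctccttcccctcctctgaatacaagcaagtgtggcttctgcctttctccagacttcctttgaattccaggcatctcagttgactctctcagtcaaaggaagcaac
Gnat2: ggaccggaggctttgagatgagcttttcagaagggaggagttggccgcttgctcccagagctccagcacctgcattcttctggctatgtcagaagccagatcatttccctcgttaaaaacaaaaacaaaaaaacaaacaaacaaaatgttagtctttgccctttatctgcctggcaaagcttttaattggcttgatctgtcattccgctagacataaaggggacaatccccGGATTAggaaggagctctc
TAATCC was found in 1 of the 6 windows of these members, that of Gnat2, on the opposite strand. It occurs in 6.25% of the 32851 windows of all genes. TAATC, which is contained in TAATCC, was found in 3 of the 6 windows, against 19.8% of all. On the printed strand the match began 49 bases before the start in Opn1sw and 18 in Gnat2, and Arr3 held it at 116, 102 and 10 bases before the start. Neither Cnga3 window nor that of Pde6h had a match. Bases in which the Cast/EiJ allele differs were not analysed here.

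The first question was whether the strains differ in their cone genes. Of the 9 members, 3 were lower in Cast/EiJ (Opn1sw, Pde6c and Cnga3), 1 was higher (Cngb3) and 5 did not pass the test. Among all 15043 genes tested, 33.4% were called, 16.3% lower and 17.0% higher. The members' median difference was -0.41, against 0.034 over all genes, and 7 of the 9 were negative. Without Pde6h, whose sign depends on the measure as described below, 6 of 8 were negative, with a median of -0.44, and with Pde6h at its value on the deposited log expression 6 of 9, with a median of -0.41. Summed over the 8 members other than Gnb3, which ON bipolar cells also express, the libraries held 12443 to 13975 count equivalents in C57BL/6J and 9115 to 9845 in Cast/EiJ. The sums did not overlap, and the hybrids lay between them, at 10559 to 12034.

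**Figure D1:**
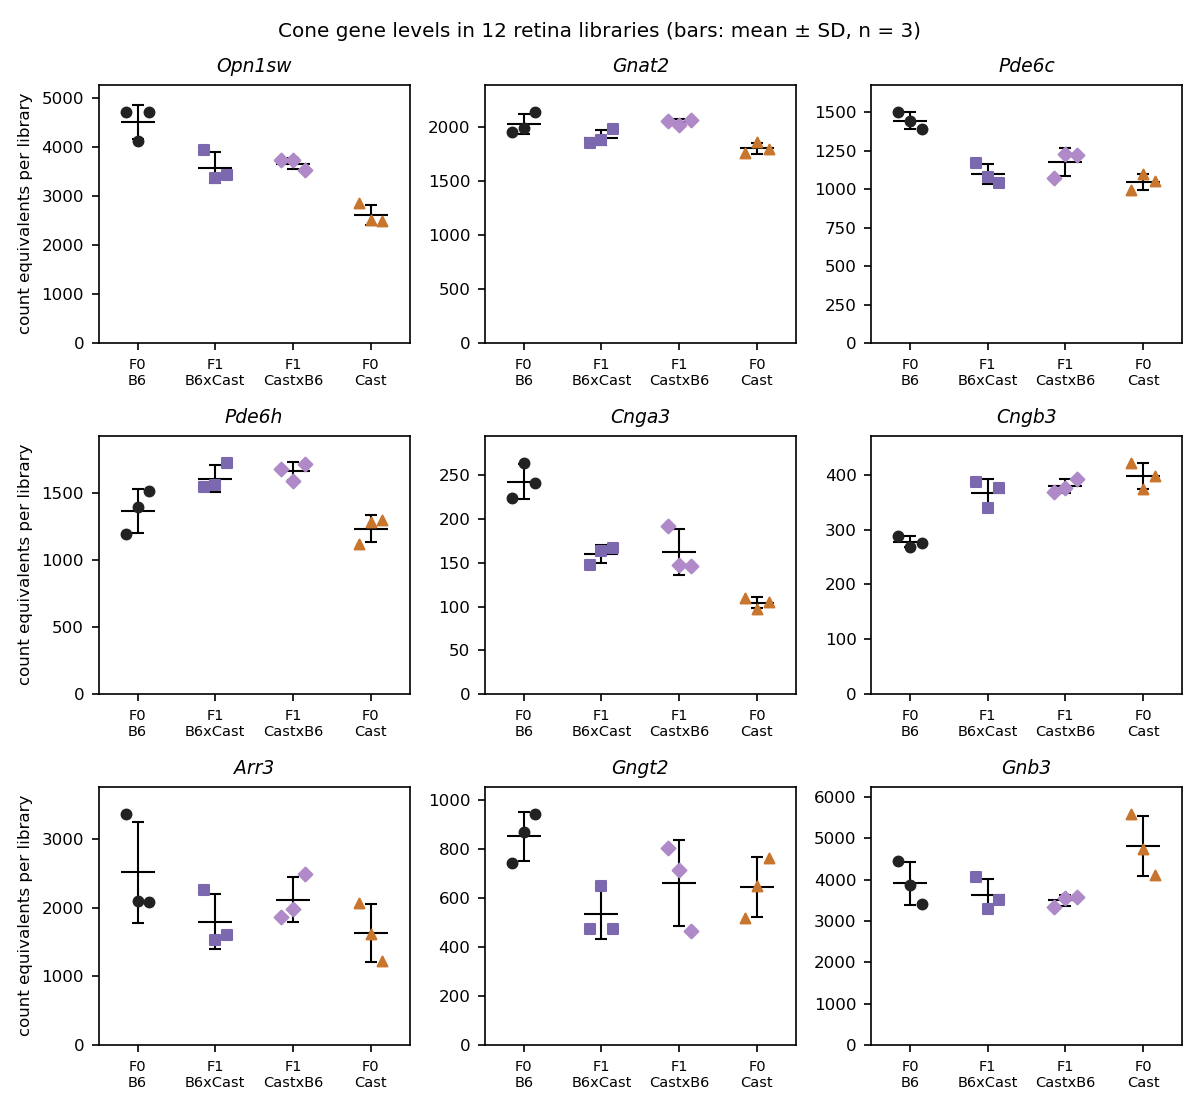
Count equivalents of the 9 members in every library (points), with the mean and SD of the 3 libraries of each class (bars), for F0 C57BL/6J (B6), both F1 crosses and F0 Cast/EiJ (Cast). Opn1sw and Cnga3 step down from F0 B6 through F1 to F0 Cast, Cngb3 is high in F1 and F0 Cast, and Arr3, Gngt2 and Gnb3 spread widely within their classes.

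Per transcript length the members fell into a high and a low group. In C57BL/6J the mean FPKM-like levels were 147 for Opn1sw, 125 for Gnb3, 104 for Arr3, 99.5 for Gngt2 and 70.1 for Gnat2, then 26.0 for Pde6c, 17.8 for Pde6h, 3.81 for Cnga3 and 3.08 for Cngb3. In Cast/EiJ they were 158 for Gnb3, 84.2 for Opn1sw, 76.5 for Gngt2, 72.0 for Arr3 and 58.1 for Gnat2, then 33.6 for Pde6h, 18.7 for Pde6c, 4.40 for Cngb3 and 1.65 for Cnga3. Neighbours in this order among Gnb3, Arr3 and Gngt2 in C57BL/6J, and among Opn1sw, Gngt2, Arr3 and Gnat2 in Cast/EiJ, were apart by less than the larger of their SDs over 3 libraries. The placing of Pde6h above Pde6c in Cast/EiJ rests on a length scaling that differed between the F0 classes, as described below. The channel subunits were the lowest members in either strain.

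Opn1sw (ENSMUSG00000058831, chr6:29326671-29338468 on NCBI37, minus strand), the short-wavelength cone opsin, had 4710, 4120 and 4710 count equivalents in the C57BL/6J libraries and 2850, 2520 and 2480 in those of Cast/EiJ. The libraries of the strains were well apart. The mean fell from 4513 ± 341 to 2617 ± 203 (SD, n = 3 each), a difference of -0.79 ± 0.08 (SE, limma adjusted p = 0.000171). On the FPKM-like scale its level was 147 ± 18.8 in C57BL/6J and 84.2 ± 17.5 in Cast/EiJ (SD, n = 3 each). Its annotated span overlaps that of Calu, on the other strand, over 440 bp, and the libraries did not keep the strand. Calu itself differed by -0.26 (limma adjusted p = 0.0589), and its part in the Opn1sw value was not tested.

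Transducin has an alpha, a beta and a gamma subunit. Gnat2 (ENSMUSG00000009108, chr3:107895707-107904350, plus strand), the cone alpha subunit, measured 1960, 1990 and 2140 count equivalents in C57BL/6J and 1760, 1860 and 1800 in Cast/EiJ. The libraries did not overlap, but the difference of -0.17 ± 0.07 did not pass (SE, limma adjusted p = 0.0803), with a 95% interval from -0.32 to -0.018, and passed with TMM scaling at -0.20 (limma adjusted p = 0.0442). Gngt2 (ENSMUSG00000038811, chr11:95698530-95707048, plus strand), the cone gamma subunit, measured 743, 871 and 943 in C57BL/6J and 518, 651 and 763 in Cast/EiJ. These ranges overlapped, and the difference was -0.41 ± 0.15 (SE, limma adjusted p = 0.0567). It passed without C57BL/6J replicate 1 (-0.51, adjusted p = 0.0330) and without Cast/EiJ replicate 3 (-0.55, adjusted p = 0.0266), but was -0.27 without Cast/EiJ replicate 1 (adjusted p = 0.143). DESeq2 on rounded count equivalents (adjusted p = 0.0254) and edgeR on unique hits (adjusted p = 0.0255) called it. With TMM scaling it passed at -0.44 (limma adjusted p = 0.0454). Gngt2 overlaps Abi3 on the opposite strand over 5261 bp, and Abi3 fell from 68.1 to 6.08 count equivalents between the strains (limma adjusted p = 0.00389), a change whose part in Gngt2 was not tested.

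Gnb3 (ENSMUSG00000023439, chr6:124784258-124790293, minus strand) is the beta subunit of cones and of ON bipolar cells, the second-order neurons that depolarize in light. It measured 4460, 3860 and 3420 count equivalents in C57BL/6J and 5580, 4740 and 4120 in Cast/EiJ. The strains overlapped, and the difference of 0.30 ± 0.13 did not pass (SE, limma adjusted p = 0.107). It passed without C57BL/6J replicate 1, at 0.39 (limma adjusted p = 0.0422), but was 0.18 without Cast/EiJ replicate 1 (adjusted p = 0.290).

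Both cone PDE6 subunits were measured. Pde6c (ENSMUSG00000024992, chr19:38207271-38258437, plus strand), the catalytic subunit, had 1500, 1440 and 1390 count equivalents in C57BL/6J and 996, 1100 and 1050 in Cast/EiJ. The libraries did not overlap, and Pde6c fell by 0.46 ± 0.07 on the log2 scale (SE, limma adjusted p = 0.00133). Pde6h (ENSMUSG00000064330, chr6:136903044-136917386, plus strand), the inhibitory gamma subunit, had 1190, 1390 and 1510 in C57BL/6J and 1120, 1280 and 1300 in Cast/EiJ. These overlapped, and the difference was -0.14 ± 0.10 (SE, limma adjusted p = 0.320). On the scale per transcript length the order of the strains was the opposite. Pde6h was 17.8 ± 2.62 in C57BL/6J and 33.6 ± 1.0 in Cast/EiJ in FPKM-like units (SD, n = 3 each), and limma on the deposited log expression gave 0.92 (adjusted p = 0.00144). One FPKM-like unit corresponded to 74.8 to 79.3 count equivalents in F0 C57BL/6J but 32.4 to 39.4 in F0 Cast/EiJ. The length scaling between the measures thus differed between the F0 classes. In F1 it was 71.3 to 75.8 for the C57BL/6J allele and 67.8 to 71.1 for the Cast/EiJ allele. No direction can be given for Pde6h between the strains.

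**Figure D2:**
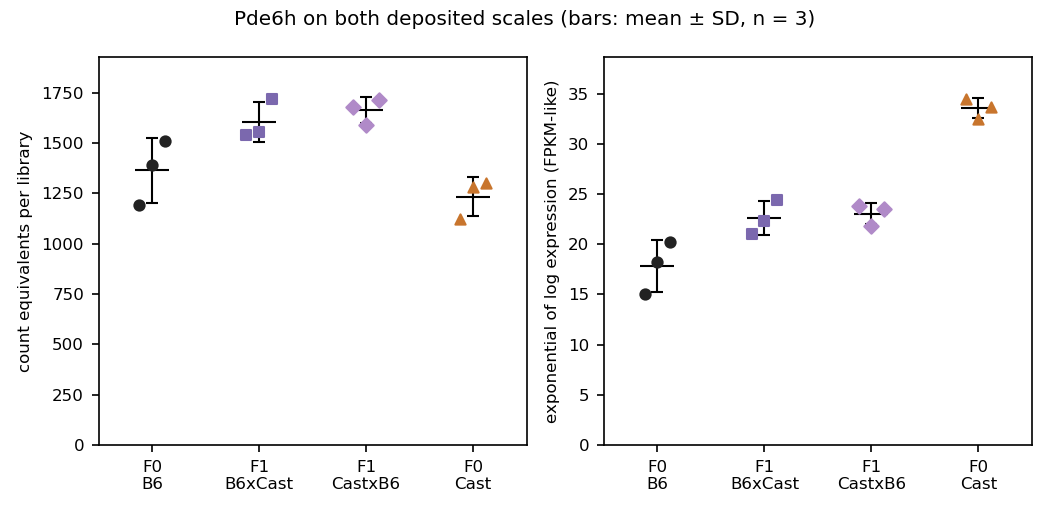
Pde6h in every library (points) with the mean and SD of 3 libraries (bars), as count equivalents on the left and on the FPKM-like scale on the right. F0 Cast/EiJ (Cast) is the lowest class on the left, at a mean of 1233, and the highest on the right, at a mean of 33.6.

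The cone channel is built from an A subunit, Cnga3, and a B subunit, Cngb3, and these moved in opposite directions. Cnga3 (ENSMUSG00000026114, chr1:37275181-37320229, plus strand) had 224, 264 and 241 count equivalents in C57BL/6J and 110, 97.7 and 105 in Cast/EiJ. That is a mean of 243 ± 20.1 against 104 ± 6.19 (SD, n = 3 each), and a difference of -1.21 ± 0.12 (SE, limma adjusted p = 0.000119), the largest of the 9 members. Cngb3 (ENSMUSG00000056494, chr4:19207997-19437770, plus strand) had 288, 268 and 276 in C57BL/6J and 421, 374 and 397 in Cast/EiJ. Its libraries did not overlap either, and it was higher in Cast/EiJ by 0.52 ± 0.09 (SE, limma adjusted p = 0.00289). Per transcript length, the ratio of Cngb3 to Cnga3 was 0.722 to 0.874 in C57BL/6J and 2.59 to 2.83 in Cast/EiJ, so the order of the subunits differed between the strains. The hybrids lay between, at 1.37 to 1.85 over both crosses. A pseudogene, Gm11877, lies within Cngb3 and was at 3.78 count equivalents or less on average.

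Arr3 (ENSMUSG00000060890, chrX:97800836-97813832, plus strand), cone arrestin, had 3360, 2100 and 2080 count equivalents in C57BL/6J and 2070, 1610 and 1220 in Cast/EiJ. Of the C57BL/6J libraries, 1 stood well above the other 2, and the highest Cast/EiJ library nearly reached them. The difference of -0.62 ± 0.22 did not pass (SE, limma adjusted p = 0.0627), with a wide 95% interval from -1.13 to -0.11. Without Cast/EiJ replicate 1 it was -0.80 (limma adjusted p = 0.0315), and without C57BL/6J replicate 1, the high library, -0.39 (adjusted p = 0.142). On the unique hits edgeR called it at -0.64 (adjusted p = 0.0252).

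The F1 libraries answer a separate question. Both alleles of a hybrid are read from the same cones, so the number of cones is the same for each allele. Of the members, 7 could be tested. Arr3 is on the X chromosome, of which a male has 1 copy, and Gngt2 had a mean of 7.0 allele-specific hits per library, below the minimum of 10. Of the 7, 2 had a lower Cast/EiJ allele (Opn1sw and Cnga3), 2 a higher one (Cngb3 and Gnb3) and 3 did not pass. Among the 13414 autosomal genes tested, 47.0% were called, 23.5% lower and 23.5% higher. The members' median was 0.08, against 0.0014 over all genes.

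The Opn1sw allele of Cast/EiJ measured 3090 to 3670 count equivalents over the 6 F1 libraries, with a median of 3420, and that of C57BL/6J 3590 to 4200, with a median of 3795. Within each library the Cast/EiJ allele was the lower one, by log2 values between -0.23 and -0.11. The mean allelic difference was -0.17 ± 0.05 (SE, limma adjusted p = 0.00963), on 12264 Cast/EiJ and 13857 C57BL/6J unique hits. Calu, whose span overlaps, had an allelic difference of -0.19 (limma adjusted p = 0.0138).

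For Cnga3 the Cast/EiJ allele measured 102 to 157 count equivalents, with a median of 122.5, and the C57BL/6J allele 179 to 228, with a median of 189.5. The alleles did not overlap, and the difference was -0.61 ± 0.10 (SE, limma adjusted p = 7.05e-05), negative in 6 of 6 libraries. For Cngb3 the Cast/EiJ allele measured 412 to 488, with a median of 477, and the C57BL/6J allele 257 to 331, with a median of 271.5. The difference was 0.73 ± 0.06 (SE, limma adjusted p = 6.29e-08), again with no overlap and positive in 6 of 6 libraries. In each channel subunit the allelic difference had the sign of the strain difference.

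Gnb3 also differed between its alleles. The Cast/EiJ allele measured 3690 to 4490 count equivalents, with a median of 4055, and the C57BL/6J allele 2870 to 3620, with a median of 2980. The difference was 0.39 ± 0.07 (SE, limma adjusted p = 0.000319), positive in 6 of 6 libraries, beside a strain difference of 0.30 that did not pass.

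The other 3 testable members showed small values. Pde6c had 972 to 1250 count equivalents on the C57BL/6J allele and 1070 to 1220 on the Cast/EiJ allele. Its allelic difference was 0.04 ± 0.05 (SE, limma adjusted p = 0.521), with a 95% interval from -0.06 to 0.14 that does not reach its strain difference of -0.46. Pde6h gave 0.15 ± 0.06 (SE, limma adjusted p = 0.0602), and passed without C57BL/6J replicate 1 (adjusted p = 0.0371) or C57BL/6J replicate 3 (adjusted p = 0.0491), which enter only through the shared estimate of the spread. Without F1 CastxB6 replicate 1 it was 0.087 (limma adjusted p = 0.310). It was also called by edgeR on unique hits (0.17, adjusted p = 4.47e-05), with the deposited log expression (0.23, limma adjusted p = 0.0180) and with a minimum of 50 allele-specific hits (adjusted p = 0.0466). Gnat2 gave 0.08 ± 0.06 (SE, limma adjusted p = 0.260), and its 6 libraries ran from -0.26 to 0.38. Without F1 B6xCast replicate 3, the library at -0.26, it was 0.17 (limma adjusted p = 0.00424), and without F1 B6xCast replicate 1, the library at 0.38, it was 0.0063 (adjusted p = 0.932). On the unique hits, 2480 for Cast/EiJ and 1899 for C57BL/6J, edgeR gave Gnat2 0.39 (adjusted p = 7.67e-14), and the deposited log expression gave 0.34 (limma adjusted p = 0.00925). The measures thus gave Gnat2 different calls, and the cause was not tested.

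**Figure D3:**
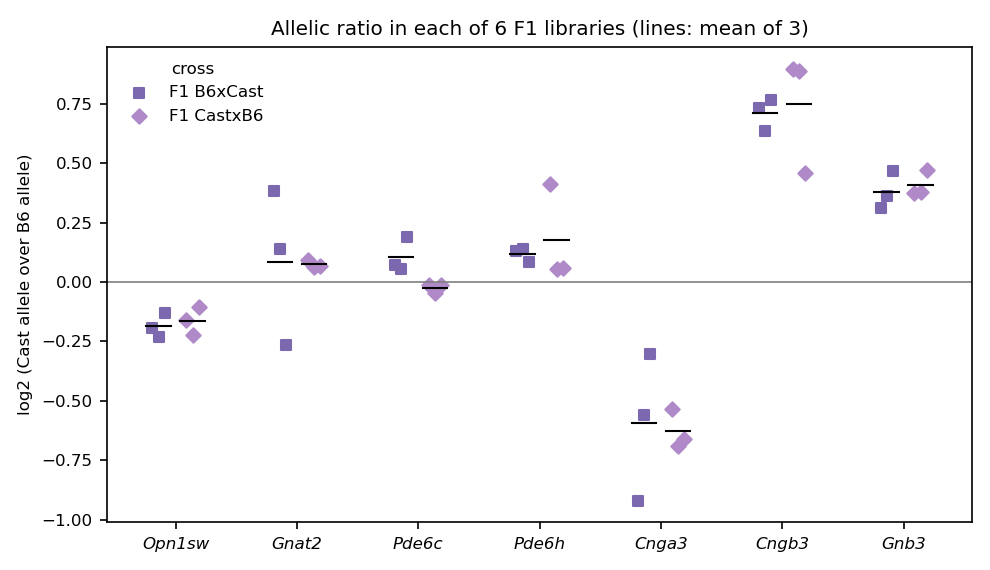
Cast/EiJ over C57BL/6J allele level, as a log2 ratio, in each F1 library (points; squares F1 B6xCast, diamonds F1 CastxB6), with the mean of the 3 libraries of a cross (lines). All libraries lie below 0 for Opn1sw and Cnga3 and above 0 for Cngb3, Gnb3 and Pde6h, and both crosses sit at similar heights.

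For the direction of the cross no member passed a test. With limma, 0 of the 7 members were called for a difference between the maternal and the paternal allele, 0 had an unadjusted p under 0.05, and edgeR on the unique hits also called 0. Over all genes, 0.492% were called. The values ran from -0.029 for Pde6h to 0.065 for Pde6c. Between the total levels of the reciprocal crosses, limma called 0 of 9 members, against 0.307% of the 15310 genes tested, and no other tool was run there. Only Gnat2, at -0.11, had an unadjusted p under 0.05 there.

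Arr3 gives a view of the X chromosome. In F1 B6xCast, where the X came from the Cast/EiJ mother, 3186 unique hits fell on the Cast/EiJ copy and 0 on the other, which allows a share of up to 0.0942% by the limit of 3 counts, or 0.116% as the upper bound of the 95% exact Clopper-Pearson interval. In F1 CastxB6, 3876 hits fell on the C57BL/6J copy and 2 on the other, a share of 0.0516% (95% exact Clopper-Pearson interval from 0.00625% to 0.186%). These limits cover counting error only. The level of Arr3 was 2250, 1531 and 1606 count equivalents in F1 B6xCast, with the Cast/EiJ copy, and 1867, 1987 and 2488 in F1 CastxB6, with the C57BL/6J copy. The crosses overlapped, and their difference was -0.25 ± 0.23 (SE, limma unadjusted p = 0.310).

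Gngt2 had 37 unique hits on its C57BL/6J allele and 5 on that of Cast/EiJ over all F1 libraries. Its allele estimates had posterior SDs of up to 2.69 on the natural log scale, and no allelic statement can be made for it.

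The strain difference and the allelic difference were then set against each other, to ask how much of the former the alleles do not show in shared cells. All 7 testable members had a negative value for the strain difference minus the allelic difference, where 50.4% of all genes did, and their median was -0.29, the value of Pde6h, against -0.0035 over all genes. Without Pde6h 6 of 6 were negative, with a median of -0.37, and with Pde6h at its value on the deposited log expression 6 of 7, with a median of -0.25. Of the 7, 3 were called, all negative, where 14.0% of all genes were called and 8.31% were called negative. No p is given for the shared sign, since the members share the F0 libraries. These are Opn1sw at -0.61 ± 0.09 (SE, limma adjusted p = 0.000268), Pde6c at -0.50 ± 0.09 (SE, limma adjusted p = 0.00104) and Cnga3 at -0.60 ± 0.18 (SE, limma adjusted p = 0.0335).

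The 3 genes reach that value differently. Opn1sw had a strain difference of -0.79 and an allelic one of -0.17, so the larger part of its fall is not seen between the alleles. Pde6c had -0.46 and 0.04, and Cnga3 -1.21 and -0.61. The Cnga3 call was lost, with values from -0.53 to -0.62 and limma adjusted p from 0.0502 to 0.0962, when replicate 2 or replicate 3 of any of the 4 classes was left out. With the deposited log expression the values were -0.49 for Opn1sw (limma adjusted p = 0.0720) and -0.47 for Cnga3 (adjusted p = 0.134), neither of them called.

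The other 4 were not called. Pde6h was at -0.29 (limma adjusted p = 0.101), and at -0.38 without C57BL/6J replicate 1 (adjusted p = 0.0298), with adjusted p up to 0.268 over the other omissions of 1 library, while the deposited log expression gave 0.69 (adjusted p = 0.00244). Gnat2 was at -0.25 (limma adjusted p = 0.123), and at -0.34 without F1 B6xCast replicate 3 (adjusted p = 0.00560), with adjusted p up to 0.259 over the other omissions. Limma on depth-scaled unique hits gave Gnat2 -0.54 (adjusted p = 0.000114), and with the deposited log expression it was -0.61 (adjusted p = 0.0288). Cngb3 was at -0.21 (limma adjusted p = 0.240) and Gnb3 at -0.10 (adjusted p = 0.688). The 95% intervals of these last 2 reached from -0.46 to 0.03 and from -0.38 to 0.19, and each included 0.

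**Figure D4:**
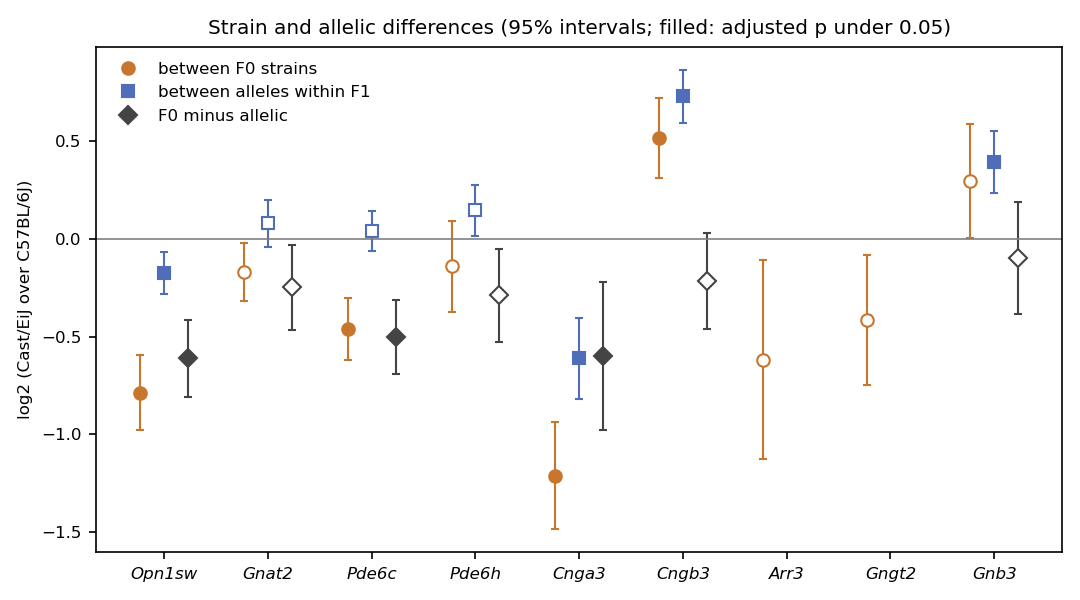
For each member, the log2 difference between the F0 strains (circles), between the alleles within F1 (squares) and the first minus the second (diamonds), with 95% intervals from limma. Filled symbols have an adjusted p under 0.05. All 7 diamonds lie below 0, and Arr3 and Gngt2 have a strain difference only.

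The total level in the hybrids was compared with each strain in 1 fit, so both comparisons share the F1 libraries. Against C57BL/6J, 3 members were lower in F1 (Opn1sw, Pde6c and Cnga3), 2 higher (Pde6h and Cngb3) and 4 did not pass, where 20.3% of all genes were called, 9.99% lower and 10.3% higher. Against Cast/EiJ, 4 were higher in F1 (Opn1sw, Gnat2, Pde6h and Cnga3), 1 lower (Gnb3) and 4 did not pass, where 33.5% were called, 16.4% lower and 17.1% higher. The members' medians were -0.32 and 0.13, against 0.0019 and -0.018 over all genes.

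Opn1sw measured 3935, 3360 and 3435 count equivalents in F1 B6xCast and 3725, 3730 and 3530 in F1 CastxB6. All 6 lay between the strains without overlap, at -0.32 ± 0.07 from C57BL/6J (SE, limma adjusted p = 0.00659) and 0.47 ± 0.07 from Cast/EiJ (SE, limma adjusted p = 0.000301). On the deposited log expression the former was -0.33 and not called (limma adjusted p = 0.119). Cnga3 measured 148, 163.5 and 167.5 in F1 B6xCast and 192.5, 148 and 146 in F1 CastxB6. It too lay between the strains, at -0.60 ± 0.10 and 0.62 ± 0.10 from them (SE, limma adjusted p = 0.00173 and 0.000807). Opn1sw was 0.08 ± 0.06 and Cnga3 0.01 ± 0.08 from the mean of the strains (SE, limma adjusted p = 0.451 and 0.962).

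Pde6c measured 1170, 1080 and 1041 count equivalents in F1 B6xCast and 1075, 1230 and 1225 in F1 CastxB6, below every C57BL/6J library and overlapping those of Cast/EiJ. It was -0.35 ± 0.06 from C57BL/6J (SE, limma adjusted p = 0.00165) and 0.11 ± 0.06 from Cast/EiJ (SE, limma adjusted p = 0.160). Cngb3 measured 386.5, 338.5 and 376 in F1 B6xCast and 368.5, 375.5 and 393 in F1 CastxB6, all above C57BL/6J and overlapping Cast/EiJ. It was 0.43 ± 0.06 from C57BL/6J (SE, limma adjusted p = 0.000561) and -0.09 ± 0.06 from Cast/EiJ (SE, limma adjusted p = 0.287). For these 2 genes no distance from Cast/EiJ was detected, the lower strain for Pde6c and the higher one for Cngb3. Cngb3 was 0.17 above the mean of the strains (limma adjusted p = 0.0539), a value called without Cast/EiJ replicate 1 (adjusted p = 0.0380) or F1 B6xCast replicate 2 (adjusted p = 0.0345), with adjusted p up to 0.137 over the other omissions.

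Pde6h was the 1 member called against the mean of the strains, where 12.3% of all genes were called. It measured 1540, 1555 and 1720 count equivalents in F1 B6xCast and 1680, 1590 and 1715 in F1 CastxB6, above every F0 library, and was 0.34 ± 0.06 over the mean of the strains (SE, limma adjusted p = 0.00368). On the deposited log expression the same distance was -0.10 (limma adjusted p = 0.496), where F0 Cast/EiJ is the highest class. Its F1 call against C57BL/6J, 0.27 (limma adjusted p = 0.0307), was lost without C57BL/6J replicate 1 (0.17) or 2, F1 B6xCast replicate 3, or F1 CastxB6 replicate 1 or 3, with adjusted p from 0.0589 to 0.127. Against Cast/EiJ it was 0.41 (limma adjusted p = 0.00191), and -0.56 on the deposited log expression (adjusted p = 0.000672).

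Gnb3, with 3280 to 4055 count equivalents in F1, was at -0.43 from Cast/EiJ (limma adjusted p = 0.00858). It was at -0.28 from the mean of the strains (limma adjusted p = 0.0542), which passed without C57BL/6J replicate 3, Cast/EiJ replicate 3 or F1 B6xCast replicate 1 (adjusted p from 0.0229 to 0.0308), with adjusted p up to 0.128 over the other omissions. Gnat2, at 1855 to 2070, was 0.13 above Cast/EiJ (limma adjusted p = 0.0325), a call lost without Cast/EiJ replicate 1 or 3, F1 B6xCast replicate 2 or 3, or any F1 CastxB6 library, with adjusted p from 0.0516 to 0.106. Gngt2 measured 475.2, 651 and 474 in F1 B6xCast and 803.5, 714 and 467.45 in F1 CastxB6, a wide spread. These levels are means of allele estimates with posterior SDs of up to 2.69 on the natural log scale. In F1 CastxB6 replicate 1, at 803.5, the allele SDs were 0.187 and 0.171. In the other F1 libraries that of the Cast/EiJ allele was 1.77 to 2.69. The part of this uncertainty in the F1 level was not tested. Gngt2 was -0.54 ± 0.18 from C57BL/6J (SE, limma adjusted p = 0.0547). That difference passed without Cast/EiJ replicate 1 (adjusted p = 0.0468), F1 B6xCast replicate 2 (adjusted p = 0.0360) or F1 CastxB6 replicate 1 (adjusted p = 0.0341), with adjusted p up to 0.171 over the other omissions. Arr3 had 95% intervals that included 0 against either strain.

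The genes whose level over the 12 libraries ran closest to that of Opn1sw, by the root mean square difference of centred log2 levels among 10639 other genes, included Dnajb14 (0.058) and Thy1 (0.060), the closest of all. Their means were 1900 and 2560 count equivalents in C57BL/6J and 1177 and 1543 in Cast/EiJ. Neither is a member. The members closest to Opn1sw were Pde6c, at 0.18 and rank 582, and Cnga3, at 0.22 and rank 1111, and the farthest was Cngb3, at 0.47 and rank 9223. This is a description over 12 libraries of 4 classes.

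Lists of neighbouring genes put these values in context. Over all genes, 33.4% were called between the strains and 14.0% for the strain minus the allelic difference. Of 7 other cone genes, 2 were lower in Cast/EiJ and 5 did not pass, with a median of -0.13. Opn1mw, the medium-wavelength opsin, fell by 0.41 ± 0.06 on the log2 scale (SE, limma adjusted p = 0.00115), and Thrb, the thyroid hormone receptor that sets the opsin pattern of cones, by 0.35 ± 0.07 (SE, limma adjusted p = 0.00596). In 5 of these genes the strain minus the allelic difference could be tested, with a median of -0.16 and 1 call, Thrb at -0.25 (limma adjusted p = 0.0282). Summed, the list measured 7252 to 7794 count equivalents in C57BL/6J and 6153 to 6878 in Cast/EiJ.

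Of 10 rod counterparts of the members, 3 were higher in Cast/EiJ and 7 did not pass, with a median of 0.00047. The largest differences were those of Sag, rod arrestin, at 1.18 ± 0.10 (SE, limma adjusted p = 4.54e-05), and Gngt1, the rod transducin gamma subunit, at 1.04 ± 0.11 (SE, limma adjusted p = 0.000177). Their strain minus allelic differences had a median of 0.12, with 2 higher and 8 that did not pass, where 14.0% of all genes were called.

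Of 9 photoresponse genes used by rods and cones alike, 3 were higher, 2 lower and 4 did not pass, with a median of 0.12. Guca1a, a guanylate cyclase activator, was 0.95 ± 0.19 higher (SE, limma adjusted p = 0.00578), and Rgs9bp, the anchor of the complex that switches transducin off, fell by 0.46 ± 0.06 (SE, limma adjusted p = 0.000793). Of 8 ON bipolar genes, 1 was higher, 3 were lower and 4 did not pass, with a median of -0.22. Cabp5, a calcium-binding protein, was 1.34 ± 0.07 higher (SE, limma adjusted p = 2.07e-06), and Gpr179, a receptor of the ON bipolar cascade, fell by 0.77 ± 0.07 (SE, limma adjusted p = 6.62e-05). Summed, the ON bipolar list overlapped between the strains, at 12917 to 14812 and 12387 to 13322. The strain minus allelic difference had a median of -0.021 over 8 shared genes and of -0.28 over 7 ON bipolar genes.

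**Figure D5:**
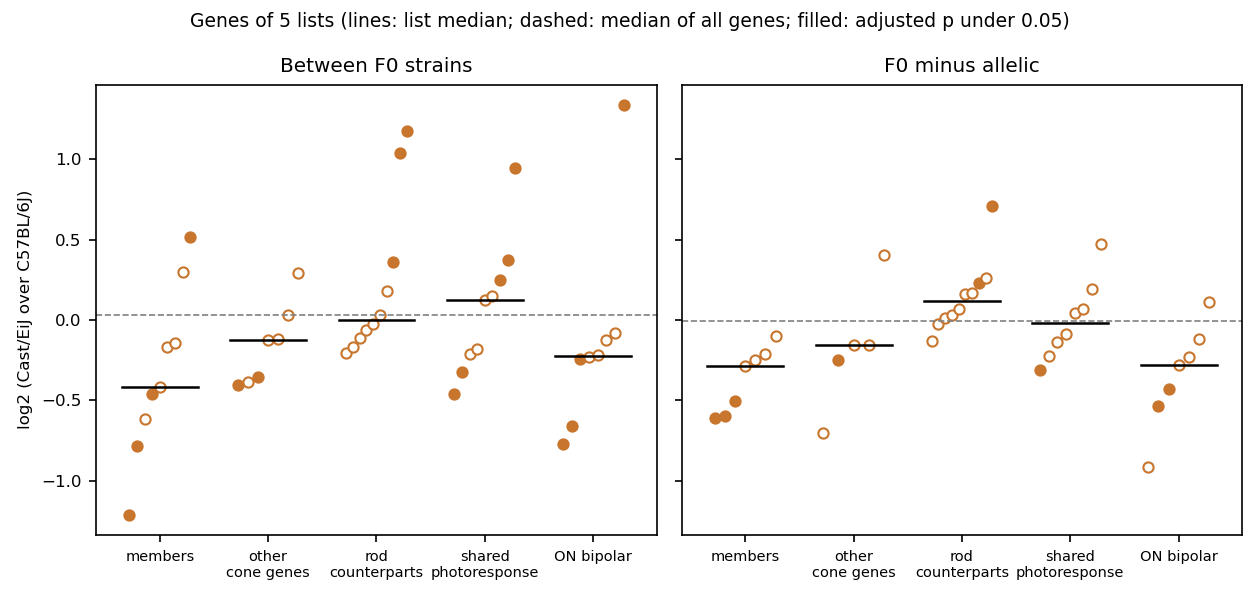
The log2 difference between the F0 strains (left) and the strain minus the allelic difference (right) for the members and for 4 lists of other genes. Points are genes, filled where the limma adjusted p is under 0.05, black lines are list medians and the dashed line is the median of all genes. The members' median is the lowest on the left. On the right it is -0.29 beside -0.28 for ON bipolar genes, an order that turns with Pde6h at its value on the deposited log expression (-0.25).

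Markers of other cells were also compared between the strains, where 33.4% of all genes were called, 16.3% lower and 17.0% higher. Of 6 ganglion cell markers 3 were lower in Cast/EiJ, and their sum was 10976 to 12497 count equivalents in C57BL/6J and 7745 to 8674 in Cast/EiJ. Of 5 amacrine markers 2 were higher, with sums of 8406 to 9542 and 10877 to 11480. Of 5 Mueller glia markers 1 was higher and 2 lower, with sums of 43410 to 52550 and 39180 to 45360, and of 4 horizontal cell markers 1 was lower, with sums of 946 to 1109 and 1035 to 1150. Of 4 testable markers of the retinal pigment epithelium 1 was lower, with sums of 167 to 201 and 62.4 to 104, of 3 blood markers 1 was lower, and neither of 2 testable lens markers passed. Of 6 photoreceptor transcription factors 1 was higher (Nr2e3, 0.35) and 1 lower (Rorb, -0.49), both named after their values were seen, and Crx was at 0.06 (limma adjusted p = 0.633). For the strain minus the allelic difference, ganglion cell markers had a median of -0.26, with 1 higher, 2 lower and 3 that did not pass. Over all genes 14.0% were called. Medians were 0.074 for amacrine, 0.017 for Mueller glia and 0.12 for horizontal cell markers. The part of these markers in the members' values was not tested.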

How the data were processed

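Whole retinas of 12 pools of mice were read as 101 bp pairs from poly(A) RNA, with the barcoded libraries sharing 1 lane and those of F1 also run on a further one. The protocol did not keep the strand. Reads were trimmed by the authors with Trim Galore 0.2.6 and mapped with Bowtie 0.12.9 to strain-specific or hybrid transcriptomes of Ensembl release 67 on NCBI37 (mm9), and expression was estimated with MMSEQ. The deposited signal values are count equivalents, normalized by the authors across libraries, with column totals from 12648792 to 13843914. The natural log of expression was deposited by the authors, with its posterior SD. The unique hits are a raw count deposited by the authors. The deposited MMDIFF table holds the authors' model probabilities, fitted effects and imprinting Bayes factors and was not used, nor were its 36 columns of copied per-library values.

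The members, gene lists and tests were chosen with earlier results of these data known. Named were all members, the 3 genes nearest to Opn1sw with a mean of at least 100, and from the lists of other cone, rod counterpart, shared photoresponse and ON bipolar genes the 2 called genes with the largest strain difference. Some genes under this rule are not reported here. Other lists covered horizontal, amacrine, ganglion, Mueller glia, pigment epithelium, lens and blood markers and photoreceptor transcription factors. Libraries were grouped by the labels' strain. Strain and total comparisons used limma with a trend on log2 of count equivalents plus 1, over genes with at least 10 in at least 3 libraries. The allelic, strain minus allelic and parent-of-origin differences came from 1 limma fit of all 18 columns with the library as a block (consensus correlation 0.135), over autosomal genes averaging 10 or more allele-specific hits per library. That correlation was reused where a library was left out. Alternatives were DESeq2 on rounded count equivalents, edgeR on unique hits, the deposited log expression, pseudocounts of 0.1 and 5, other filters, TMM scaling, a replicate block and each library left out. The functions were tested on simulated data. Tools were R 4.3.3, limma 3.58.1, edgeR 4.0.16, DESeq2 1.42.0 and Python 3.11.15. Gene overlaps were read from the GENCODE annotation of NCBI37, and sequences from RefSeq windows of GRCm38.p6, whose coordinates were not mixed with those of NCBI37.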

Additional observations from a re-analysis of the deposited data

Results flagged for a closer look

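The Pde6h allelic ratio of 1 library, F1 CastxB6 replicate 1, stood apart from the other 5 F1 libraries at 0.41 (log2, Cast/EiJ over C57BL/6J), with the nearest at 0.14. The rule that flagged it is met by chance in about 1 of 20 groups of normally distributed values, and 7 members were examined. Without this library the Pde6h allelic difference was 0.09.

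For 3 members the difference between the F0 strains was unlike that between the alleles within F1, by limma's test of the difference itself. The difference of the differences was -0.61 for Opn1sw (adjusted p = 0.000268), -0.50 for Pde6c (adjusted p = 0.00104) and -0.60 for Cnga3 (adjusted p = 0.0335).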

How the results depend on the processing

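Of 1103 values of single members under another setting, 1005 kept their direction and their side of the threshold, 24 lost a call, 38 gained one and 36 changed sign. Of the sign changes, those of Pde6h with the deposited log expression were large, at 0.92 between the strains, 0.69 for the strain minus the allelic difference, -0.56 for F1 against Cast/EiJ and -0.096 for F1 against the mean of the strains. With that measure Gnat2 also changed sign, at -0.0041 for parent of origin and 0.069 for F1 against C57BL/6J, as did Cnga3, at -0.036 for parent of origin and 0.021 between the crosses. Between the strains 4 members were called, and 4 to 6 with 1 library left out. It was 6 with TMM scaling or edgeR on unique hits, and 5 with DESeq2 or the deposited log expression. Over all genes, TMM scaling called 4896 of 15043 and edgeR 5392 of 14418. DESeq2 called 4763 of 15043 and the deposited log expression 4173 of 15043. With no filter on low values, 3200 of 37991 genes were called between the strains, in place of 5019 of 15043. Against the mean of the strains 1 member was called, but 0 with the deposited log expression, 2 with TMM scaling, 2 with no filter on low values, and 1 to 2 with 1 library left out.

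Leaving out 1 library changed the sign of some values near 0. The ranges over these fits were -0.21 to 0.0086 for the strain minus allelic difference of Gnb3. For parent of origin they were -0.027 to 0.0031 for Opn1sw, -0.069 to 0.093 for Gnat2, -0.059 to 0.031 for Pde6h, -0.056 to 0.099 for Cnga3, -0.091 to 0.019 for Cngb3 and -0.036 to 0.0037 for Gnb3. For F1 against C57BL/6J it was -0.063 to 0.00058 for Gnat2, and against Cast/EiJ -0.27 to 0.0061 for Gngt2. Against the mean of the strains they were -0.054 to 0.045 for Cnga3 and -0.13 to 0.077 for Arr3. Between the crosses they were -0.11 to 0.0063 for Opn1sw, -0.082 to 0.12 for Cnga3, -0.086 to 0.0089 for Cngb3 and -0.041 to 0.11 for Gnb3. The F1 call of Pde6h against C57BL/6J (0.27, limma adjusted p = 0.0307) was lost in 5 of 12 such fits, with adjusted p up to 0.127.

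The replicate numbers of the labels name no shared litter or day, and libraries with the same number did not always deviate together (correlations of -0.057 to 0.276 between the F0 strains). With the number as a replicate block, 8 of 9 members were called between the strains by limma, among them Arr3 (-0.62, adjusted p = 0.000520), Gngt2 (-0.41, adjusted p = 0.00207), Gnb3 (0.30, adjusted p = 0.00166) and Gnat2 (-0.17, adjusted p = 0.0375), and 3 against the mean of the strains. Calls also rose over all genes with the block. Between the strains it called 6511 of 15043 genes in place of 5019. Against the mean of the strains it called 2100 of 15310 in place of 1886. Over the pairs of classes, 0 to 2 of 3 libraries correlated best with their own number.

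Unique hits limit the allelic precision. Among the 7 tested members they were fewest for Cnga3, with 451 hits on its Cast/EiJ allele over 6 libraries.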

Other observations

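Otop3, listed among the other cone genes and named after its values were seen, was at 122 and 125 count equivalents on average in the F0 strains and at 18.2 in the F1 libraries, and its alleles had too few unique hits to be tested.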
